A study of Homo sapiens with 6 samples.

Results

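The transcription factors that answer cyclic AMP and growth signals, with their coactivators and a set of their target genes, were described in HEL, an established human erythroleukemia cell line. The members are 10 genes taken by name, and all 10 were among the 31999 genes of the deposited table. They are the CREB family (CREB1, CREM, ATF1), the coactivators CRTC2 and CRTC3, and the target genes NR4A1, NR4A2, NR4A3, SIK1 and ATF3. Poly(A) RNA had been sequenced from 6 libraries of transduced HEL cells. 3 libraries carried a lentiviral control hairpin (shCtrl) and 3 a hairpin against TMIGD2 (shTMIGD2), a costimulatory immune receptor. The labels give 3 biological replicates a group and no time point, and all cells had been grown in RPMI with serum. Per the paper's methods, transduced cell lines received puromycin for 3 days. The CREB genes are of interest here because the study followed the phosphorylation of CREB in these cells. The design uses 1 labelled knockdown condition in 1 cell line, and the methods list 3 hairpins against TMIGD2 without naming the one in these libraries.

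For each gene the deposited table holds 1 level that is not part of the authors' own comparison, the mean log2 CPM over all 6 libraries of both groups. CPM is the count of a gene scaled to the library total, and a value of 0 on the log2 scale stands for 1 CPM. The levels below therefore describe HEL cells with both hairpins pooled. No spread between libraries, no sequencing depth and no difference between shTMIGD2 and shCtrl can be had from this mean, and no test between the groups was made here. TMIGD2 itself had a mean log2 CPM of 4.08 over the 6 libraries, a value that cannot check the knockdown label. In RNA from a whole culture, fewer cells of a kind and less RNA per cell cannot be told apart.

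CREB1, CREM and ATF1 are closely related bZIP proteins that bind as dimers to the cAMP response element, a short palindrome in promoters. Kinases such as PKA, RSK and MSK phosphorylate a serine in their kinase-inducible domain, which recruits the histone acetyltransferases CREBBP and EP300. The CRTC proteins are a separate arm, held in the cytoplasm by SIK kinases and freed by calcineurin. The NR4A orphan receptors, the kinase SIK1 and ATF3 are early response genes, quickly and briefly transcribed after a stimulus, and SIK1 in turn restrains the CRTC proteins. CREM has an internal promoter that yields the repressor ICER, which lacks the activation domain.

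The coding stretch around the phosphorylated serine shows what the 3 CREB family members share, and 30 bases of it are given from the GENCODE 44 transcripts, on the coding strand, with the serine codon in capitals.
CREB1: tcaaggaggcctTCCtacaggaaaattttg
CREM: tcacgaagacccTCTtataggaaaatactg
ATF1: gcacggcgcccaTCTtacagaaaaattttg
The serine is codon 119 of the 327 codons of CREB1 in this transcript, codon 87 of 299 in CREM and codon 63 of 271 in ATF1. Within these windows CREB1 matched CREM at 22 of 30 bases and ATF1 at 23 of 30, and CREM matched ATF1 at 21 of 30. Over the whole coding sequence, 68.0% of the aligned columns were identical between CREB1 and CREM, 63.4% between CREB1 and ATF1 and 64.4% between CREM and ATF1.

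The cAMP response element was then looked for in the members' own promoters, since several of them are known as targets of CREB. RefSeq promoters of 300 bases (GRCh38.p14, 250 bases before to 50 after the start) were held for 8 of the 10 members, with 1 to 7 starts a gene. CRTC2 and NR4A2 have no entry. The full element, TGACGTCA, which reads the same on both strands, was found in 1 of the 8 members, CREM. It was present in 1.85% of the 35116 promoters and in 2.25% of the 27305 genes with an entry. The CREM element lies at chr10:35195841-35195870 (window on the plus strand, element in capitals).
CREM: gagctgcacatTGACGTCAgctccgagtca
Relative to an annotated internal start at 35195902 its first base lies at -50, counting the start as 0, and relative to a start at 35195850 it lies at 2. Of the 48 CREM transcripts in GENCODE 44, 4 start within 100 bases of either position. The element is thus on the internal side of the gene, and no full element was found at the 5 other CREM starts.

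The core of the element, TGACG on either strand, was found in 4 of the 8 members (CREM, CRTC3, NR4A3 and SIK1). It was present in 28.4% of all genes with an entry and in 24.6% of all promoters. CREM was searched at 7 starts, and a gene with more starts has more windows in which either motif can match. The core also forms part of the full element. NR4A3 had 4 cores between -109 and -25 and SIK1 had 3, and the windows below are given 5′ to 3′ on the strand of the gene, with the core in capitals, because these are the target genes with repeated cores.
NR4A3 at -109, chr9:99821764-99821793, plus strand: ggaggaggagggTGACGtagcgtcccatgg
NR4A3 at -83, chr9:99821790-99821819, plus strand: atggcgtcacatTGACGtctcgcattccag
NR4A3 at -25, chr9:99821848-99821877, plus strand: ctgtggcataaaTGACGtgccgagagagcg
SIK1 at -137, chr21:43427251-43427280, minus strand: gcgtcgctctggCGTCAaagcgacgtcaat
SIK1 at -126, chr21:43427240-43427269, minus strand: gcgtcaaagcgaCGTCAatgggcggccccc
The other NR4A3 core lies at -91 and the other SIK1 core at -217. CRTC3 had a single core at -181, and CREM had cores at -178 and -68 of an upstream start. No core was found in the windows of CREB1, ATF1, NR4A1 and ATF3. A match to these letters is not a measured binding site.

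**Figure D1:**
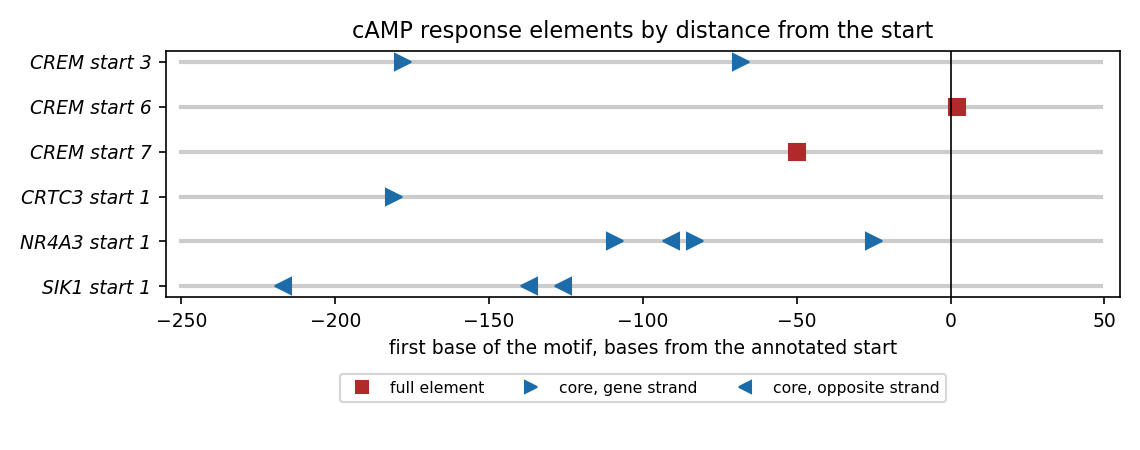
Distance of each cAMP response element (square) and core (triangle, pointing along its strand) from the annotated start, in bases, for the members with a match; grey lines are the 300 bases searched and starts are numbered in the order of the promoter entries. The full element sits at 2 and -50 from 2 internal CREM starts, and the SIK1 cores lie between -217 and -126.

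The CREB family genes were all expressed, with mean log2 CPM from 3.51 to 5.96. CREB1 (chromosome 2, 207529737 to 207605988, plus strand, 8 exons in the MANE transcript) had a mean log2 CPM of 5.96, or 62.1 CPM. ATF1 (chromosome 12, 50763710 to 50821162, plus strand, 7 exons) had 5.30, or 39.4 CPM. CREM (chromosome 10, 35126791 to 35212958, plus strand, 8 exons) had 3.51, or 11.4 CPM. A long transcript collects more fragments, and the exons of CREB1 span 12132 bases against 2830 in ATF1. Levels of different genes were therefore compared per kilobase of exon, counting all annotated exons of the gene once. These lengths come from GENCODE, while the paper's methods name a refSeq annotation for the counting. Exons found only in GENCODE would add length without counted reads. A level per kilobase can then be too low, by an amount that differs between genes. The exon union of NR4A1 has 7295 bases against 2485 in its MANE transcript, and that of ATF1 2830 against 2412. Lengths in the refSeq annotation were not examined.

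Per kilobase the order within the family changed, with ATF1 above CREB1 and CREB1 above CREM. The level per kilobase was 3.80 on the log2 scale for ATF1, 2.36 for CREB1 and 1.00 for CREM. ATF1 was thus 2.72-fold above CREB1 and 6.95-fold above CREM, and it made up 66.2% of the summed CPM per kilobase of the 3 genes, with 24.3% for CREB1 and 9.51% for CREM. With the longest transcript as the length the shares were 61.7%, 23.2% and 15.1%. With the median length of the coding transcripts, which is 721.5 bases for CREB1, the order of the first 2 turned, and CREB1 held 57.4% against 35.3% for ATF1. The 721.5 bases are fewer than the 327 codons of CREB1 take up, and its MANE transcript has 10095 bases. For ATF1 the median is 745 bases, also fewer than its 271 codons take up. The turned order thus rests on lengths too short for a whole coding sequence. CREM had the lowest level of the 3 under each of the 3 lengths. The table sums all CREM transcripts, so the activating forms and ICER, which CREM encodes from different starts, cannot be told apart in it.

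**Figure D2:**
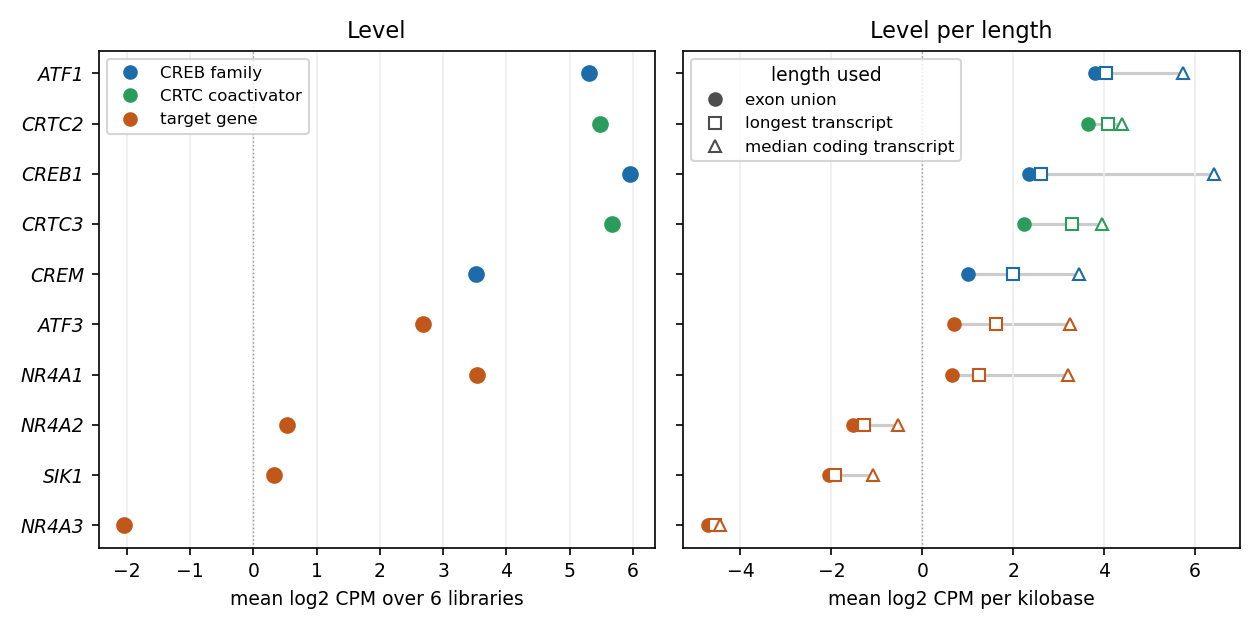
Mean log2 CPM over the 6 libraries (left) and the same per kilobase of transcript (right) for the 10 members, coloured by role; circles use the exon union as length, squares the longest transcript and triangles the median coding transcript. The CREB family and CRTC genes lie at 1.00 or more per kilobase of exon union, and NR4A3 is lowest at -4.71.

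Both coactivator members were expressed, with CRTC2 the higher per kilobase. CRTC3 (chromosome 15, 90529923 to 90645345, plus strand, 15 exons) had a mean log2 CPM of 5.67, or 51.0 CPM. CRTC2 (chromosome 1, 153947669 to 153958615, minus strand, 14 exons) had 5.49, or 44.9 CPM. Per kilobase CRTC2 was the higher of the pair, at 3.64 on the log2 scale against 2.24 for CRTC3, and it stayed so under each of the 3 lengths, by 0.45 to 1.40 on the log2 scale. CRTC1, the paralog best known from neurons, had a mean log2 CPM of 4.14 and a level per kilobase of 1.34. Of the summed CPM per kilobase of the 3 CRTC genes, CRTC2 made up 63.2%, CRTC3 23.9% and CRTC1 12.8%. The shares of CRTC2 lay between 52.3% and 63.2% over the 3 lengths.

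**Figure D3:**
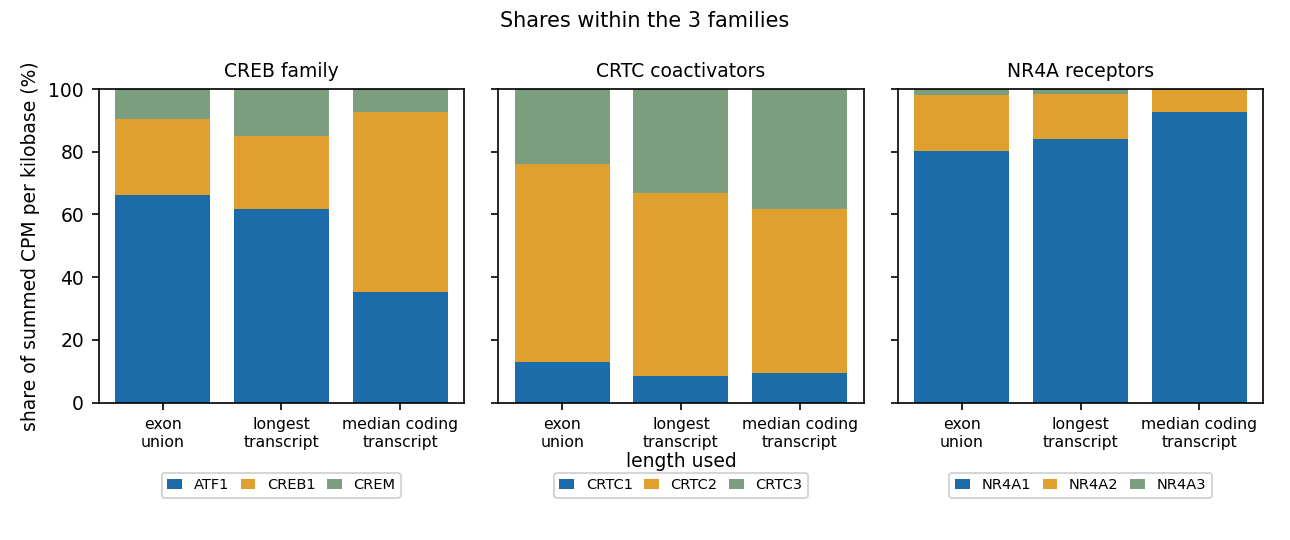
Share of each gene in the summed CPM per kilobase of its family, in percent, for the 3 lengths. CRTC2 and NR4A1 hold the largest share of their families under each length, while ATF1 gives way to CREB1 when the median coding transcript is used. For CREB1 and ATF1 that length is shorter than the coding sequence.

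The NR4A genes, which encode nuclear receptors without a known natural ligand and act as early response genes, covered a wide range of levels. NR4A1 (chromosome 12, 52022832 to 52059507, plus strand, 7 exons) had a mean log2 CPM of 3.53, or 11.6 CPM. NR4A2 (chromosome 2, 156324437 to 156342348, minus strand, 8 exons) had 0.52, or 1.44 CPM. NR4A3 (chromosome 9, 99821855 to 99866891, plus strand, 8 exons) had -2.05, or 0.241 CPM. Each step down this order was large per kilobase, with NR4A1 at 4.53-fold the level of NR4A2 and NR4A2 at 9.14-fold that of NR4A3. With the median coding transcript these folds were 13.4 and 15.1. That length is 1258 bases for NR4A1 against 2485 in its MANE transcript, and 5293 against 5604 for NR4A3. The reads are the same, so the larger folds come from the lengths alone. NR4A1 made up 80.3% of the summed CPM per kilobase of the 3 genes and NR4A3 1.94%, and with the median coding transcript 92.6% and 0.460%. The order held under each of the 3 lengths.

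NR4A3 had a low level in reads, although 40.8% of the genes listed lay below it. The lowest mean log2 CPM listed was -3.76, shared by 154 genes, and NR4A3 was 1.71 above it on the log2 scale. At such levels a mean log2 CPM depends on the small constant that is added to the counts before the logarithm is taken, which is not stated, so the fold between NR4A2 and NR4A3 is less firm than that between NR4A1 and NR4A2.

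ATF3 (chromosome 1, 212565334 to 212620777, plus strand, 4 exons), a stress-induced bZIP factor that mostly represses, had a mean log2 CPM of 2.69, or 6.44 CPM. Per kilobase it stood at 0.69 on the log2 scale, next to NR4A1 at 0.66. The 2 genes differed by 0.03 to 0.36 over the 3 lengths, and with no spread between libraries their order is not established.

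SIK1 (chromosome 21, 43414483 to 43427131, minus strand, 14 exons), the salt-inducible kinase that phosphorylates CRTC proteins, was listed at a mean log2 CPM of 0.32, or 1.25 CPM. The table holds a separate entry, SIK1B, at 2.99, or 7.97 CPM. In hg38 this copy lies on chromosome 21 from 6111131 to 6123778, on the plus strand. GENCODE 44 tags it as an artifactual duplication whose real copy is SIK1. Aligned over their full length of 12649 and 12648 bases, the copies differed by 12 edits, an identity of 99.9%. A read from either copy can thus seldom be assigned, and how the authors' counting treated reads that fit both places is not stated. Of the summed CPM of the 2 entries, 86.5% stood under SIK1B and 13.5% under SIK1.

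Summing the entries raised SIK1 by 2.88 on the log2 scale, to 3.20, or 9.22 CPM. Per kilobase it went from -2.06 to 0.82 on the log2 scale, and its place among the 10 members from 9 to 6. On the sum SIK1 stood beside ATF3 and NR4A1, while on its own entry it stood between NR4A2 and NR4A3. The sum may still be too low if reads that matched both copies were dropped.

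Overlaps with exons of other genes covered at most 10.3% of a member. NR4A1 shares 754 exon bases with the antisense RNA NR4A1AS on the opposite strand. CREM shares 191 exon bases, 3.35% of its union, with CUL2, a ubiquitin ligase scaffold gene at a mean log2 CPM of 6.27. CRTC3 shares 103 bases, 0.952%, with CRTC3-AS1, which was listed at -1.40. Further antisense RNAs with no gene symbol share 205 exon bases with CREM, 99 with CRTC3 and 59 with CREB1. NR4A1AS and the RNAs without a symbol had no level listed under these names. The library kit keeps the strand, but whether the counting used it is not stated, and without it reads from these pairs cannot be told apart. The paper's methods name a refSeq annotation for the counting, and overlaps in it were not examined. No exon overlap with another gene was found for ATF1, CRTC2, NR4A2, NR4A3, SIK1 or ATF3.

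Set against all 31999 genes, 9 of the 10 members had a mean log2 CPM above the median of -0.97, with as many genes above it as below. NR4A3 was the exception. Much of the table consists of genes with few reads, and only 43.8% of its genes reached 1 CPM. Against the 16341 protein-coding genes, whose median was 3.64, 4 of the 10 members lay above it. Per kilobase of exon union, the share of protein-coding genes with a lower level was 81.2% for ATF1, 79.4% for CRTC2, 63.0% for CREB1 and 61.3% for CRTC3. It was 48.8% for CREM, 46.1% for ATF3, 46.0% for NR4A1, 33.7% for NR4A2, 31.1% for SIK1 and 13.5% for NR4A3. ATF1, CRTC2, CREB1 and CRTC3 were therefore in the upper part of the range. CREM, ATF3 and NR4A1 lay close together just below its middle, so the factors and target genes did not separate fully. NR4A2, SIK1 and NR4A3 lay lower, with SIK1 subject to the split described above. The SIK1 sum, at 0.82 per kilobase, would lie between 47% and 48%.

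**Figure D4:**
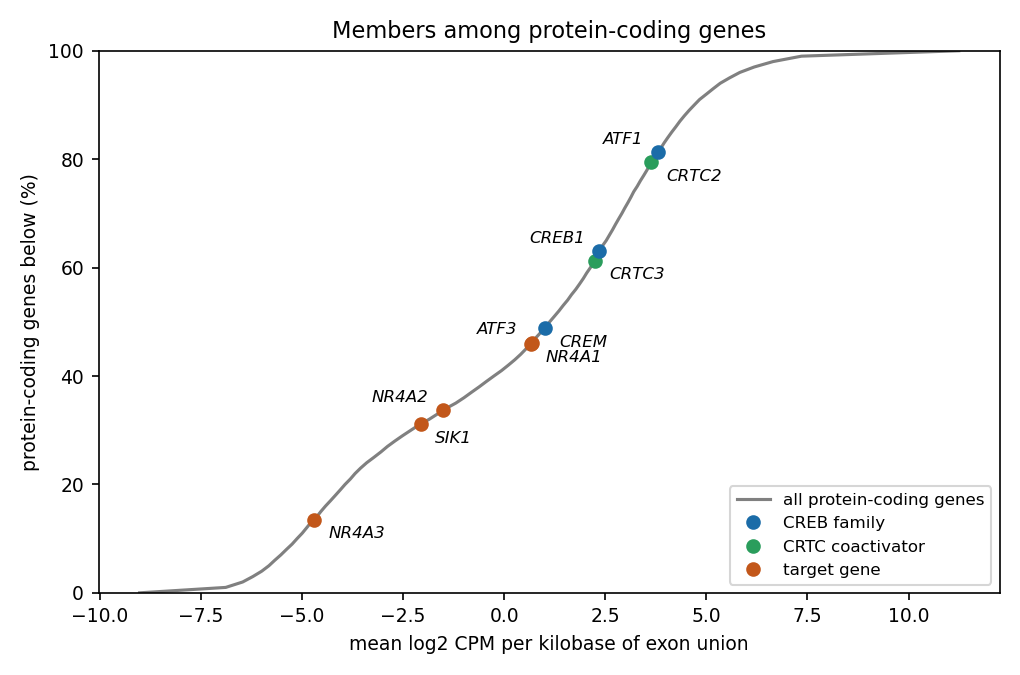
Percent of protein-coding genes with a lower level against mean log2 CPM per kilobase of exon union; the grey line gives all 16341 protein-coding genes and points the members, coloured by role. ATF1 and CRTC2 have 81.2% and 79.4% of the genes below them, and the 5 target genes lie between 13.5% and 46.1%.

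The genes that act on these members were nearly all expressed. Of 13 kinases that phosphorylate CREB or stand above such kinases, 12 had at least 1 CPM, against 69.1% of protein-coding genes. RPS6KA1, which encodes RSK1, had the highest level per kilobase of them at 5.57 on the log2 scale, and RPS6KA2, which encodes RSK3, the lowest at -5.97. Their mean log2 CPM were 8.12 and -2.93. All 4 other coactivators reached 1 CPM, with EP300 highest per kilobase at 3.41 and CRTC1 lowest at 1.34. All 8 regulators of the CRTC proteins did, from PPP3R1, the regulatory subunit of calcineurin, at 5.61 per kilobase to SIK2 at 2.15. SIK2 and SIK3, with mean log2 CPM of 5.43 and 7.10, both lay above the 3.20 of the SIK1 sum, and per kilobase they had 2.15 and 3.66 against 0.82. The 4 catalytic phosphatase subunits that can act on the CREB serine were also expressed, between 4.61 for PPP1CB and 5.50 for PPP1CA per kilobase.

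Among 15 other CREB and ATF genes, 13 reached 1 CPM. ATF4, the effector of the integrated stress response, was highest per kilobase at 7.45 on the log2 scale, above every member. ATF7 was lowest at -5.14. Exon overlaps with other genes were examined for the members only, not for ATF7 or other genes of the lists. The median of the 15 genes per kilobase was 2.83, next to 2.36 for the CREB family members.

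Further CREB targets were grouped by the tissue they are known from. Low levels of the neuron, liver and endocrine group in HEL could be foreseen from that choice and say nothing about CREB. Of 14 targets found in many tissues, 13 were listed and all 13 had at least 1 CPM, with a median of 2.86 per kilobase on the log2 scale. CITED2, which encodes a partner of CREBBP and EP300, was highest at 7.59 and PDE4B, a cAMP phosphodiesterase, lowest at -3.10. PER1 was not listed. Of 10 targets known from neurons, liver or endocrine cells, 6 were listed and 1 reached 1 CPM, the neuropeptide gene NTS at a mean log2 CPM of 3.13. Its level per kilobase was 2.50, and the lowest of the 6, PCK1, had -6.26. The 5 target genes among the members had a median of -1.52 per kilobase, or 0.66 with the SIK1 sum in place of the SIK1 entry, and both values lay between the medians of 2.86 and -5.17 of these groups. Of the retinoid X receptors that pair with NR4A1 and NR4A2, RXRB had 3.90 per kilobase, RXRA -1.16 and RXRG -5.09.

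**Figure D5:**
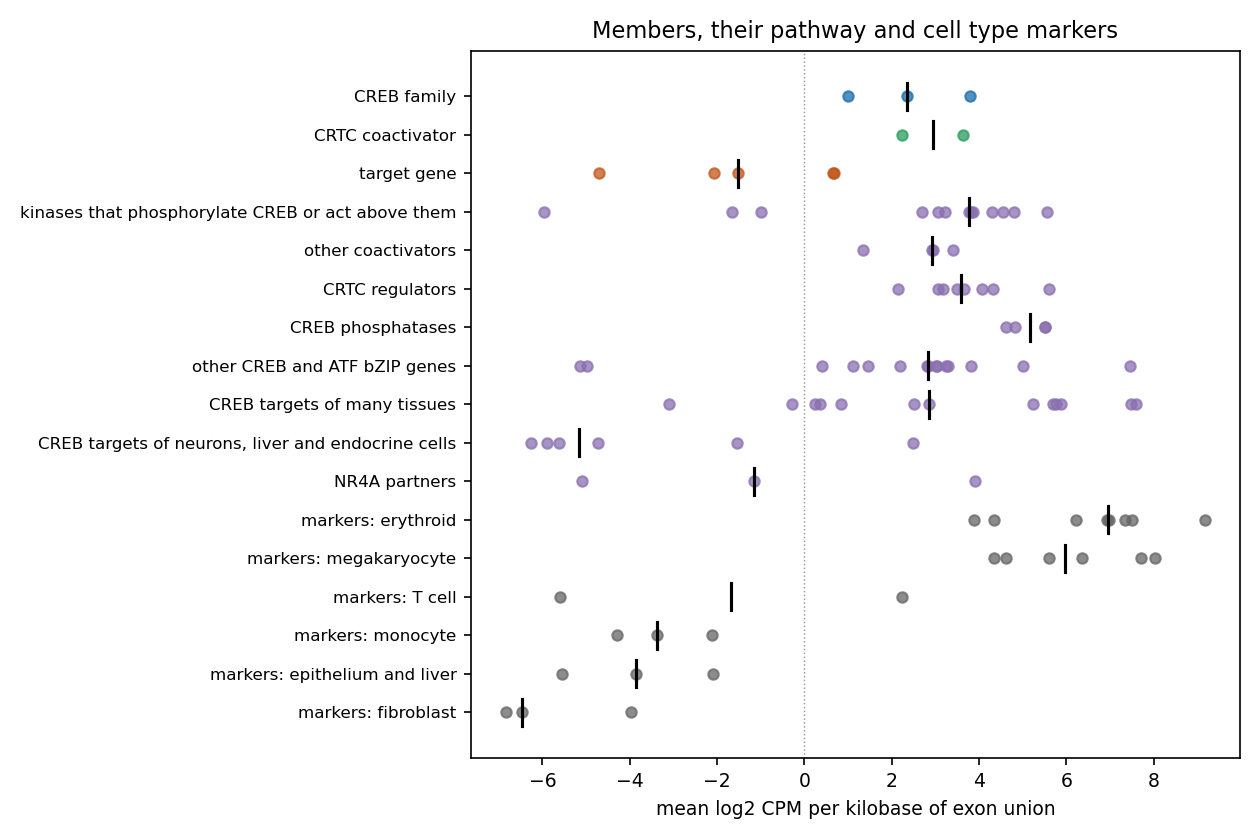
Mean log2 CPM per kilobase of exon union of every gene with a value in each list (points) with the median of the list (black bar). The targets of neurons, liver and endocrine cells lie mostly below -1, unlike the targets of many tissues, whose median is 2.86.

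The cell line label was set beside marker genes chosen with the other lists. Such markers show a lineage and cannot identify the cell line. The lowest of the 8 erythroid markers, EPOR, stood at 5.52 on the log2 CPM scale, and the lowest of the 6 listed of 7 megakaryocyte markers, GP9, at 6.16. GP1BB was not listed. The summed level of the listed T cell markers was 7.82 CPM, nearly all of it CD2 at a mean log2 CPM of 2.95, with CD3G at -3.66 and CD3D and CD3E not listed. Monocyte markers summed to 1.60 CPM, epithelial and liver markers to 0.499 CPM and fibroblast markers to 0.816 CPM. Apart from CD2 and CSF1R, the listed markers of these cell types were below 1 CPM each, beside an erythroid sum of 4175 CPM.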

How the data were processed

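The authors aligned reads to hg38 with STAR 2.6.1b and counted fragments per gene with HTSeq 0.6.1, per the labels, and the paper's methods name a refSeq annotation. The authors deposited 1 table with the column names of an edgeR test. The column used here is the authors' log2 CPM over all 6 libraries, called the mean log2 CPM here, whose normalization and added constant are not stated. Turned back to CPM, its values sum to 1002514 over all genes, close to the total that averaging before the logarithm would give. The 4 other value columns hold the authors' own comparison of shTMIGD2 with shCtrl (log2 fold change, F, p-value and adjusted p-value) and were not used. The count test planned in advance needs counts per library and was not run. The depth is unknown, so no interval is given.

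CPM of a gene is 2 to the power of that level. Exon lengths, positions and transcripts come from GENCODE 44, where 22987 gene names matched by symbol. Promoters come from RefSeq. The copies of SIK1 were aligned end to end on hg38 with edlib 1.3.9 in Python 3.11.15. The motif, rank and identity steps were tested on simulated data. Named genes are the members, the highest and lowest of each other list per kilobase, near-identical copies, and genes of overlapping exons. CRTC1, SIK2, SIK3, RXRA and the markers printed were added after their values were seen. The members and lists were chosen with earlier results of these data known. 1 marker list is not reported here.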

Additional observations from a re-analysis of the deposited data

How the results depend on the processing

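No paired analysis was possible because the authors' mean is a single value per gene over all 6 libraries. For the same reason the replicate block, DESeq2, the count filter and leaving out each library were not run. The lengths used moved each level per kilobase, and no spread between libraries says by how much a level must move to matter. The 3 lengths all come from GENCODE, so they do not test the refSeq annotation named for the counting. With the longest transcript the log2 levels per kilobase were 2.62 for CREB1, 2.00 for CREM, 4.03 for ATF1, 4.09 for CRTC2, 3.29 for CRTC3, 1.26 for NR4A1, -1.27 for NR4A2, -4.56 for NR4A3, -1.93 for SIK1 and 1.62 for ATF3. With the median coding transcript they were 6.43 for CREB1, 3.46 for CREM, 5.73 for ATF1, 4.40 for CRTC2, 3.94 for CRTC3, 3.20 for NR4A1, -0.54 for NR4A2, -4.45 for NR4A3, -1.08 for SIK1 and 3.24 for ATF3. The places of CREM, ATF3, NR4A1, NR4A2, SIK1 and NR4A3, from 5 to 10, were the same under the 3 lengths, and those of the 4 other members changed. MANE lengths were not tried as a setting of their own, and other lengths could change these places. For NR4A1 the MANE transcript has 2485 bases against 4837 in the longest.

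The count of members above the median went from 9 of 10 over all genes to 4 with genes of at least 1 CPM and to 4 with protein-coding genes, because these backgrounds hold fewer genes with low values. With only genes and members of at least 2 CPM it was 4 of the 7 members left. The count with a full cAMP response element stayed at 1 in the 250 bases before the start and was 4 with the core, which is part of the element. Summing SIK1 and SIK1B, chosen after seeing the data, took SIK1 from 0.32 to 3.20 and its level per kilobase from -2.06 to 0.82.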

Other observations

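The cAMP response element was also set against level over the whole table, as a description with no test. Of the genes listed, 449 had the full element in a RefSeq promoter, and their median of mean log2 CPM was 4.63 (quartiles 1.00 and 6.14). The 4667 genes with the core alone had a median of 4.27, and the 9176 genes with neither had 2.53. At least 1 CPM was reached by 79.1%, 75.8% and 61.9% of them. CREM, the member with the full element, had 3.51. CRTC3 with 1 core had 5.67, while NR4A3, with 4 cores, had -2.05. Per kilobase of exon union CREM had 1.00, CRTC3 2.24 and NR4A3 -4.71. The base composition of these promoters, which the element shares, was not tested, and neither was the number of annotated starts a gene has. The levels of the classes were not taken per kilobase, so gene length was not accounted for either.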
